A study of Populus tremula x Populus alba with 6 samples.

Results

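The entry of the phenylpropanoid pathway was followed in the shoot apex of hybrid poplar through 9 genes of 3 enzyme families, out of 32049 genes listed in the files. The genes are PAL1 to PAL5, C4H1, C4H2, 4CL3 and 4CL5, chosen by name, though with earlier results of these data known. All 9 identifiers were present in the files and all 9 passed the filter on low counts. The files carry identifiers only, so each name rests on the accepted pairing of poplar locus and gene name that defined the set.

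Plants make lignin, flavonoids, condensed tannins and many defence compounds from phenylalanine. Phenylalanine ammonia-lyase (PAL) removes the amino group and gives cinnamic acid, and cinnamate 4-hydroxylase (C4H), a cytochrome P450 enzyme, adds a hydroxyl group to give p-coumaric acid. The ligase 4-coumarate:CoA ligase (4CL) then activates this acid to p-coumaroyl-CoA, from which the branches to lignin and to flavonoids part. In Populus trichocarpa, 4CL3 and 4CL5 are known to act together in a protein complex in wood-forming tissue, and PAL1 and PAL3 form one closely related pair within the PAL family.

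The RNAi plants (n = 3) were of the hybrid 717-1B4 (Populus tremula x Populus alba) and carried a knock-down construct against DDM1, a chromatin remodeller needed to maintain DNA methylation. The controls (CTRL, n = 3) were wild-type plants of the same hybrid. All 6 plants, controls included, had 3 weeks of drought and 1 week of re-watering, on compost at 21 °C with 16 h of light, so no unstressed plants entered the comparison. The construct's promoter, the number of independent RNAi lines among the 3 plants and the level of DDM1 were not analysed here, so the knock-down rests on the labels.

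Polyadenylated RNA was sequenced with a kit that keeps the strand, and levels are given as CPM, the sense-strand counts per 1000000 counts of a library size scaled by trimmed-mean (TMM) factors. Libraries held between 12399644 and 17165295 counts assigned to genes. At this depth a count of 0 allows up to 3 counts, or between 0.173 and 0.260 CPM, counting error only. A pair of identifiers fixed as shoot meristem markers was detected in each library, with a summed level of 87.3 to 116 CPM in RNAi and 97.3 to 148 CPM in CTRL. In whole apices, fewer cells of a type and less RNA per cell cannot be told apart.

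None of the 9 genes was called changed between RNAi and wild-type apices in edgeR's quasi-likelihood test, at a Benjamini-Hochberg adjusted p under 0.05 over 24991 genes. Of all genes tested, 0.004% were called. DESeq2, limma-voom and edgeR's likelihood ratio test also called 0 of the 9, and over the whole table they called 37, 2 and 61 genes. The fitted level was higher in RNAi for 9 of 9 genes, against 49.8% of all tested genes, with a median log2 fold change of 0.36 against -0.001 for all. The 9 genes were read in the same 6 libraries, where 33 of their 36 pairs correlated positively. They are therefore not independent observations, and the count was not tested. The direction of C4H1, C4H2, PAL5 and 4CL3 was not stable, and turned for C4H1 and C4H2 with library size alone or upper-quartile factors as the scaling, and for each of the 4 without RNAi 2. At an unadjusted p under 0.05, 2 of the 9, PAL1 and PAL4, were higher in RNAi, against 3.08% of all tested genes, and 0 of the 9 were lower, against 2.56%.

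**Figure D1:**
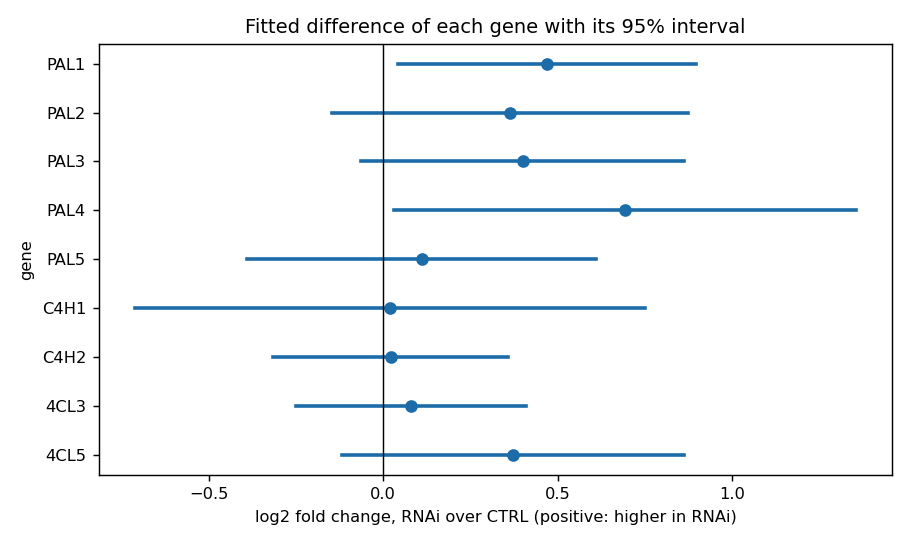
Each point is the fitted log2 fold change of a gene, RNAi over CTRL, and the line is its 95% interval from edgeR's quasi-likelihood fit (n = 3 each). The intervals of PAL1 and PAL4 lie just above 0, from 0.04 and 0.03, before any adjustment, while those of the other 7 genes span 0.

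PAL1 (Potri.006G126800, chromosome 6 by its identifier), which catalyses the first step, showed the clearest separation between the groups. Its level was 1367, 1685 and 1469.7 CPM in RNAi 1, 2 and 3, against 1031, 1079.8 and 1155 CPM in CTRL 1, 2 and 3. Each RNAi library exceeded every CTRL library, which held for 1 of the 9 genes and for 5.75% of all tested genes. The reverse order held for 0 of the 9 and for 6.08% of all tested genes. The means were 1507 ± 163 CPM in RNAi and 1088 ± 62.4 CPM in CTRL (SD, n = 3 each). The log2 fold change of 0.47 ± 0.19 (SE), or 1.38-fold, had a 95% interval from 0.04 to 0.90. It did not pass edgeR's quasi-likelihood test (adjusted p = 0.801, unadjusted p = 0.035), and with 1 library left out the unadjusted p lay between 0.0563 and 0.11.

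PAL3 (Potri.016G091100, chromosome 16), the close relative of PAL1, had 399, 446 and 582 CPM in RNAi 1, 2 and 3, against 328, 419 and 334 CPM in CTRL 1, 2 and 3. RNAi 3 was the highest library and CTRL 2 lay above RNAi 1, so the groups overlapped. Its log2 fold change was 0.40 ± 0.20 (SE), with a 95% interval from -0.06 to 0.86 and an adjusted p of 0.801 in edgeR. Leaving out RNAi 3 gave 0.23.

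PAL2 (Potri.008G038200, chromosome 8), another ammonia-lyase, had 184, 172 and 189 CPM in RNAi 1, 2 and 3, against 180.3, 147 and 96.6 CPM in CTRL 1, 2 and 3. The RNAi libraries were close to one another, and the spread lay in the controls, with CTRL 3 the lowest and CTRL 1 above RNAi 2. The means were 182 ± 9.0 CPM in RNAi and 141 ± 42.1 CPM in CTRL (SD, n = 3 each). Without CTRL 3 its log2 fold change of 0.36 ± 0.22 (SE, edgeR adjusted p = 0.801) became 0.15, and without CTRL 1 it became 0.59.

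PAL4 (Potri.010G224100) and PAL5 (Potri.010G224200) are consecutive entries on chromosome 10 in the files, and they are the PAL genes with the fewest counts. PAL4 had 73, 146 and 190 counts in RNAi 1, 2 and 3, or 5.28, 9.35 and 10.96 CPM, against 54, 91 and 80 counts in CTRL 1, 2 and 3, or 4.67, 6.26 and 4.92 CPM. RNAi 2 and 3 lay above all controls, while RNAi 1 lay among them. The log2 fold change of PAL4, 0.69 ± 0.29 (SE), had the largest size among the 9 genes and a 95% interval from 0.03 to 1.36 (adjusted p = 0.801 in edgeR, unadjusted p = 0.0425). Without RNAi 1 it was 0.94 and without RNAi 3 it was 0.47, with adjusted p of 0.513 and 0.829.

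PAL5 had 5.13, 7.82 and 6.98 CPM in RNAi 1, 2 and 3, against 6.66, 6.33 and 5.54 CPM in CTRL 1, 2 and 3. RNAi 1 was the lowest library and RNAi 2 the highest, so the RNAi plants enclosed the controls. Its log2 fold change was 0.11 ± 0.22 (SE), with a 95% interval from -0.39 to 0.61 (adjusted p = 0.931 in edgeR). Reads that map to more than 1 place are counted in a line of their own in the files. If the paralogs share near-identical stretches, the counts of a family, and the split between neighbours such as PAL4 and PAL5, are therefore uncertain.

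**Figure D2:**
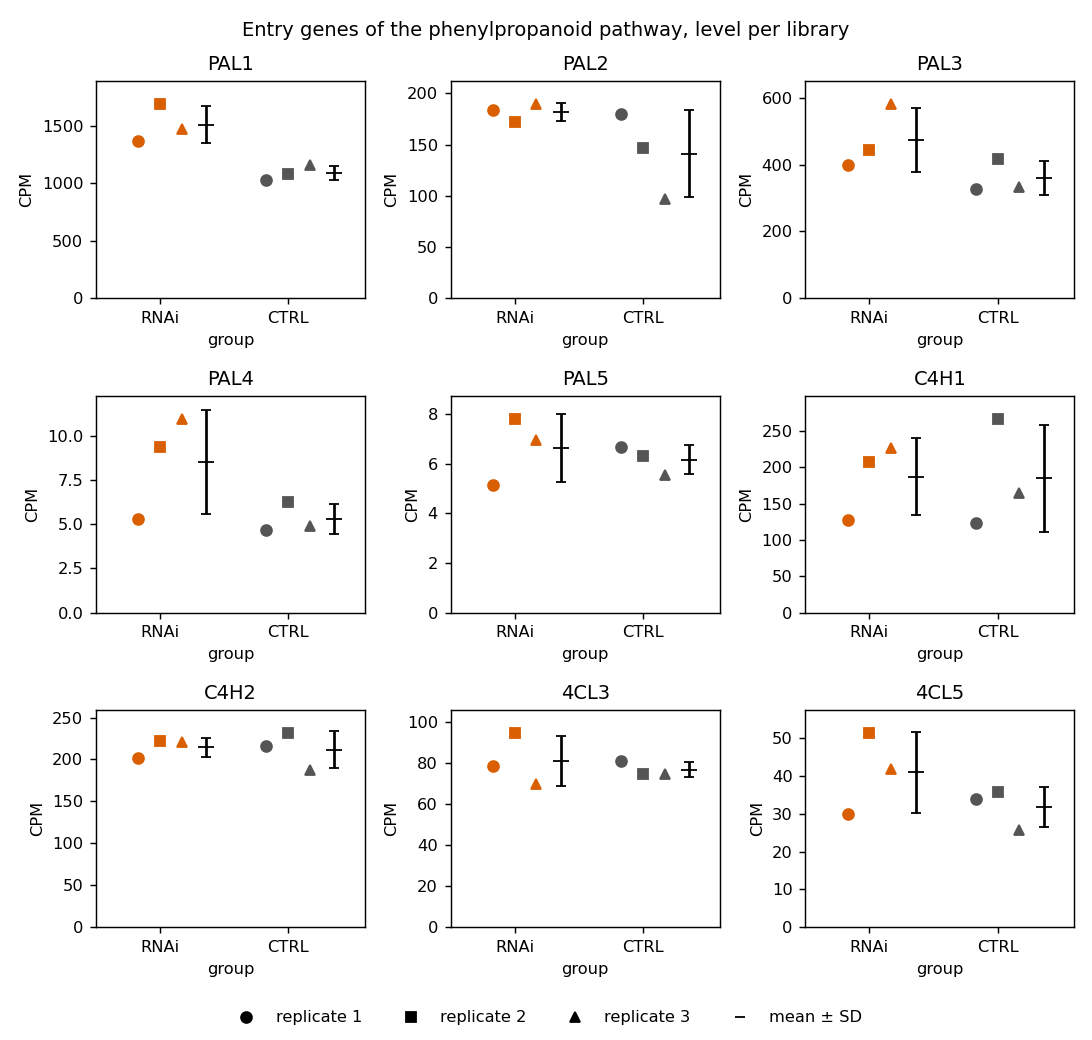
Levels in CPM (vertical axis, from 0) of the 9 genes in each library, RNAi left and CTRL right, with symbols for the replicate and the mean ± SD beside them (n = 3 each). Only PAL1 has no overlap between the groups, with RNAi at 1367 CPM or more and CTRL at 1155 CPM or less.

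For the second step the groups overlapped in both C4H genes, which differed from each other in how much they varied. C4H1 (Potri.013G157900, chromosome 13) had 127, 208 and 226 CPM in RNAi 1, 2 and 3, against 122.6, 267 and 164 CPM in CTRL 1, 2 and 3. The highest and the lowest library were both controls. Its pooled within-group SD of log2 CPM was 0.51, above that of 93.9% of the tested genes with a mean of at least 10 CPM. Between the groups the log2 fold change was 0.02 ± 0.32 (SE), and the 95% interval, from -0.71 to 0.75, leaves room for differences of over 1.5-fold in either direction.

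C4H2 (Potri.019G130700, chromosome 19), the other cinnamate 4-hydroxylase, was steady over the plants. It had 201, 222 and 221 CPM in RNAi 1, 2 and 3, against 216, 231 and 187 CPM in CTRL 1, 2 and 3. The RNAi values lay inside the range of the controls. Its within-group SD of log2 CPM was 0.12, above that of 21.1% of the same genes. Its log2 fold change, 0.02 ± 0.15 (SE, edgeR adjusted p = 0.983), had a 95% interval from -0.32 to 0.36.

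For the third step, 4CL3 (Potri.001G036900, chromosome 1) had 78.7, 94.4 and 69.95 CPM in RNAi 1, 2 and 3, against 80.9, 74.7 and 74.5 CPM in CTRL 1, 2 and 3. RNAi held both the highest library, RNAi 2, and the lowest, RNAi 3. The log2 fold change of this CoA ligase was 0.08 ± 0.14 (SE), with a 95% interval from -0.25 to 0.41 (adjusted p = 0.925 in edgeR). Its partner 4CL5 (Potri.003G188500, chromosome 3) had 30.0, 51.3 and 41.8 CPM in RNAi 1, 2 and 3, against 33.8, 35.7 and 25.8 CPM in CTRL 1, 2 and 3. RNAi 2 and 3 lay above all controls and RNAi 1 lay between CTRL 3 and CTRL 1. The log2 fold change of 4CL5 was 0.37 ± 0.21 (SE), with a 95% interval from -0.12 to 0.86 (adjusted p = 0.801 in edgeR). Without RNAi 2 it was 0.18 and without RNAi 1 it was 0.55.

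Summed over its 5 genes, PAL reached 1959.5, 2321 and 2259.5 CPM in RNAi 1, 2 and 3, against 1550.5, 1658 and 1596 CPM in CTRL 1, 2 and 3. The groups did not overlap, and the mean difference was 0.44 on the log2 scale, or 1.36-fold. By exact two-sided permutation p was 0.10, below which 3 plants against 3 cannot go, and 0.30 once adjusted over the 3 families. PAL1 gave most of these counts, so the total is not a second observation beside PAL1.

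The C4H total was 402 ± 64.0 CPM in RNAi plants and 396 ± 88.2 CPM in CTRL plants (SD, n = 3 each), with overlap (exact permutation p = 1.0). The 4CL total was 122 ± 20.6 CPM in RNAi plants and 108 ± 7.40 CPM in CTRL plants (SD, n = 3 each, exact permutation p = 0.50, 0.75 adjusted). Of its log2 difference of 0.16, 0.02 was left without RNAi 2.

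The balance between steps, compared after the values were seen, does not depend on the scaling of a library. There were 5.97, 5.41 and 5.06 PAL counts per C4H count in RNAi 1, 2 and 3, against 4.58, 3.33 and 4.54 in CTRL 1, 2 and 3. Each RNAi library exceeded every CTRL library, with a log2 difference of 0.41 (exact permutation p = 0.10, the smallest possible, and 0.15 adjusted over 3 ratios). Without CTRL 2, the library with the lowest ratio, the log2 difference was 0.26. PAL counts per 4CL count were 18.03, 15.92 and 20.2 in RNAi 1, 2 and 3, against 13.5, 15.0 and 15.91 in CTRL 1, 2 and 3. These groups were parted only by the gap between RNAi 2 and CTRL 3, and the exact permutation p was again 0.10, and 0.15 adjusted. Both ratios reuse the PAL total, mostly PAL1 counts, so their separation is not a further observation beside it. The 3 ratios are also not independent of one another. The C4H to 4CL ratio overlapped, at 3.32 ± 0.59 in RNAi plants and 3.66 ± 0.79 in CTRL plants (SD, n = 3 each, exact permutation p = 0.60).

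**Figure D3:**
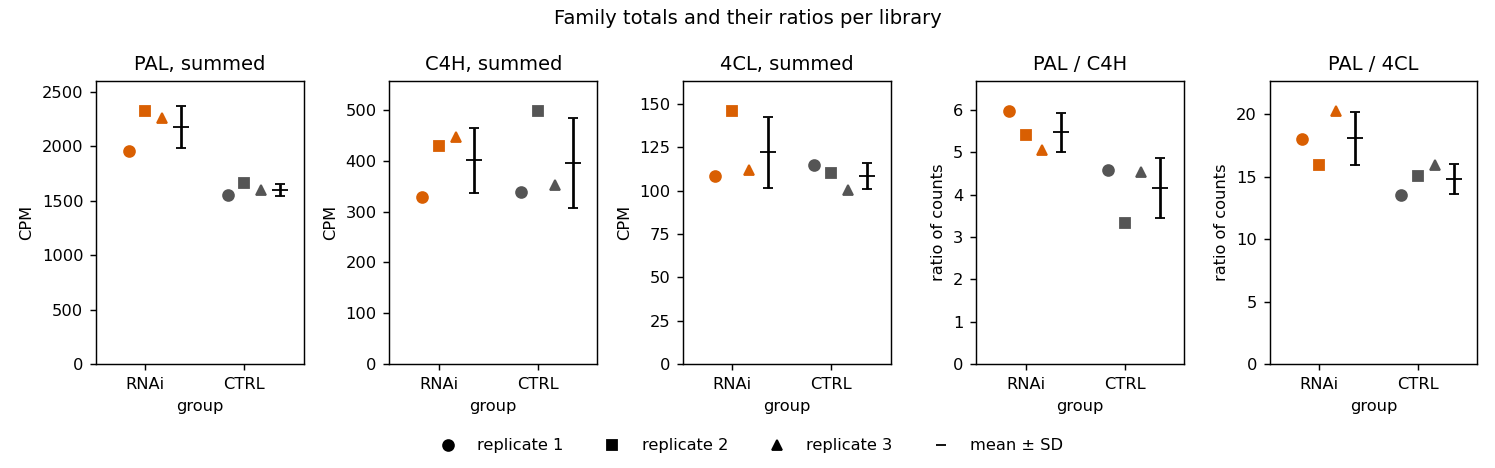
Summed CPM of each family and ratios of family counts within a library (vertical axes from 0), RNAi left and CTRL right, with mean ± SD (n = 3 each). The PAL total and the PAL to C4H ratio stand higher in all 3 RNAi libraries, while the C4H and 4CL totals overlap.

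Shares of the paralogs in the counts of their family were next compared per library. They are shares of counts and not of molecules, because gene length and the share of uniquely mapping reads differ between paralogs. PAL1 held 69.7%, 72.6% and 65.0% of PAL counts in RNAi 1, 2 and 3, against 66.5%, 65.1% and 72.3% in CTRL 1, 2 and 3. The exact 95% binomial intervals of single PAL shares were at most 0.69 percentage points to either side, counting error only. The difference between the groups, 1.16 percentage points, was within the spread of replicates (exact permutation p = 0.80).

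PAL3 held 20.3%, 19.2% and 25.8% of PAL counts in RNAi 1, 2 and 3, against 21.2%, 25.3% and 20.9% in CTRL 1, 2 and 3. The PAL2 share was 8.39 ± 0.99% in RNAi plants and 8.85 ± 2.79% in CTRL plants (SD, n = 3 each). For PAL5 the share was below that of all controls in each RNAi library, with 0.262%, 0.337% and 0.309% in RNAi 1, 2 and 3, against 0.430%, 0.382% and 0.347% in CTRL 1, 2 and 3. This was the only one of the 9 shares without overlap between the groups (exact permutation p = 0.10, and 0.90 adjusted over 9 shares). Only the binomial intervals of RNAi 1 (0.205% to 0.330%) and CTRL 1 (0.339% to 0.537%) lay apart. Those of every other RNAi and CTRL pair overlapped, such as RNAi 2 (0.280% to 0.402%) and CTRL 3 (0.279% to 0.426%). The order within these overlapping pairs was not resolved at this depth. A share also depends on the counts of the other paralogs. The level of PAL5 itself was not lower in RNAi, at 6.64 ± 1.37 CPM against 6.17 ± 0.58 CPM in CTRL (SD, n = 3 each).

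C4H1 and C4H2 shared the C4H counts in proportions that moved from plant to plant rather than between groups. The C4H1 share was 38.7% (exact 95% binomial interval 37.3% to 40.1%), 48.4% (47.2% to 49.6%) and 50.6% (49.5% to 51.7%) in RNAi 1, 2 and 3. In CTRL 1, 2 and 3 it was 36.2% (34.7% to 37.7%), 53.6% (52.4% to 54.7%) and 46.7% (45.4% to 48.0%). Counts of C4H2 outnumbered those of C4H1 in RNAi 1, RNAi 2, CTRL 1 and CTRL 3, and the reverse held in CTRL 2. In RNAi 3 the interval spanned an even split. The group means, 45.9 ± 6.32% in RNAi plants and 45.5 ± 8.75% in CTRL plants (SD, n = 3 each), differed by less than the spread between plants (exact permutation p = 1.0).

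4CL3 held 72.4%, 64.8% and 62.6% of 4CL counts in RNAi 1, 2 and 3, against 70.5%, 67.7% and 74.3% in CTRL 1, 2 and 3. RNAi 2 and 3 lay below all controls and RNAi 1 lay among them. The mean difference was -4.24 percentage points (exact permutation p = 0.30, 0.90 adjusted), and with 1 library left out it lay between -7.14 and -2.24.

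**Figure D4:**
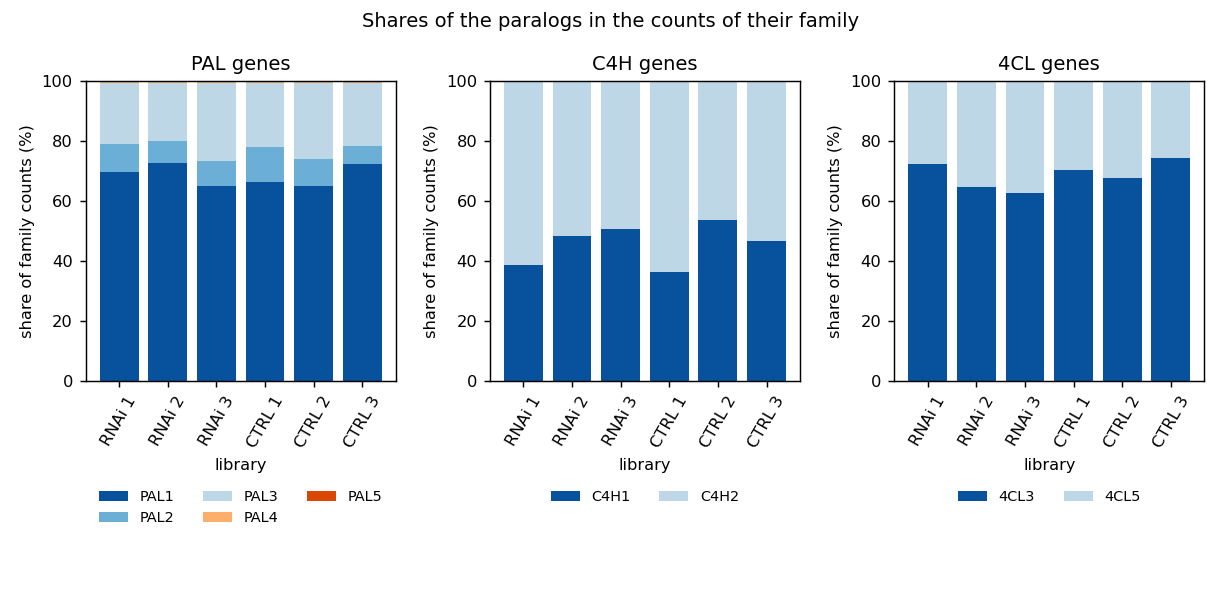
Stacked bars give the share of each paralog in the sense counts of its family (vertical axis, percent) for RNAi 1 to 3 and then CTRL 1 to 3. PAL1 holds 65.0% to 72.6% of PAL counts throughout, PAL4 and PAL5 under 0.5% each, and the C4H1 share is lowest in RNAi 1 and CTRL 1.

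The 9 genes did not follow a single pattern over the 6 libraries. RNAi 2 was the highest library for 4 genes (PAL1, PAL5, 4CL3 and 4CL5), RNAi 3 for 3 (PAL2, PAL3 and PAL4) and CTRL 2 for 2 (both C4H genes). CTRL 1 was the lowest library for 4 genes and CTRL 3 for 3. Of 36 pairs of genes, 33 had a positive Pearson correlation of log2 CPM over the 6 libraries, with a median r of 0.51. By exact permutation 3 pairs had an unadjusted p under 0.05, and 0 had an adjusted p under 0.05.

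PAL3 and PAL4 were the most alike pair, with r = 0.928 (exact permutation p = 0.00139, 0.05 adjusted over 36 pairs) and a Spearman rho of 1.0 (exact permutation p = 0.00278, 0.10 adjusted). Without CTRL 1 and RNAi 3, the libraries farthest from the median of PAL3, r was 0.818, and with the group means subtracted it was 0.863. PAL5 and 4CL5 had r = 0.905 and rho = 0.886 (exact permutation p = 0.0167 and 0.0333, adjusted 0.301 and 0.412). Without RNAi 1 and RNAi 2 their r was 0.944, and with group means subtracted 0.962. PAL4 and 4CL5 had r = 0.828 and rho = 0.771 (exact permutation p = 0.0458 and 0.103, adjusted 0.507 and 0.412), but r was 0.478 without RNAi 2 and RNAi 3, the libraries farthest from the median of PAL4, and 0.744 with group means subtracted. The 3 pairs with a negative r were PAL3 with 4CL3 (-0.203), C4H1 with 4CL3 (-0.165) and PAL2 with C4H1 (-0.0856).

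**Figure D5:**
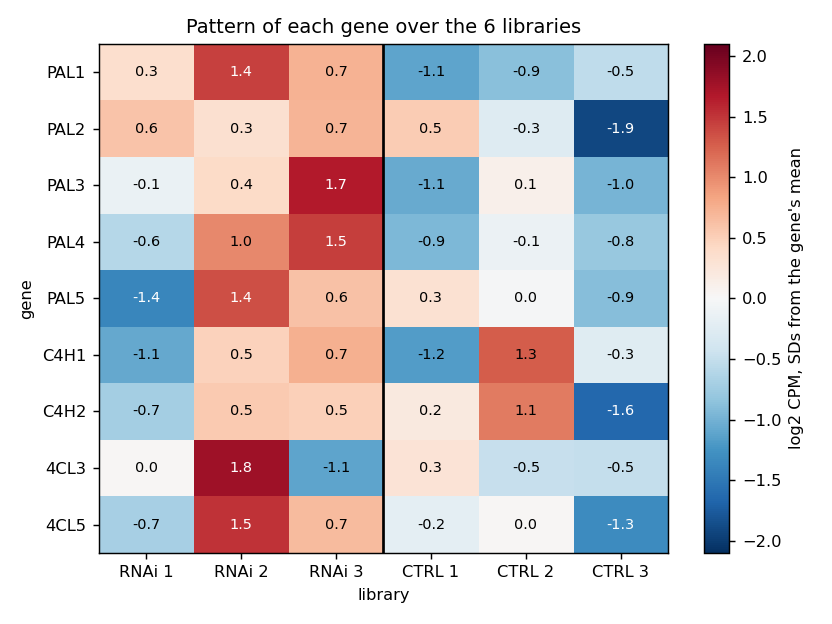
Each cell gives the log2 CPM of a gene in a library as SDs from that gene's mean over the 6 libraries, with RNAi left of the line and CTRL right. PAL1 is above its mean in all RNAi libraries and below it in all CTRL libraries, and the other 8 genes have at least 1 library on the other side.

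Outside the set, genes were ranked by the Pearson r of their log2 CPM with the mean standardized profile of the 9 genes, over 6 libraries and 24089 genes with a mean of at least 1 CPM. The most alike were Potri.010G070800 (r = 0.996) and Potri.014G011600 (r = 0.996), and the most opposite Potri.018G078900 (r = -0.992) and Potri.003G021500 (r = -0.991). With 6 points and this many genes, such values are a description of these libraries only. Potri.010G070800 averaged 29.9 ± 3.43 CPM in RNAi and 25.5 ± 2.30 CPM in CTRL (SD, n = 3 each), and it did not pass edgeR's test (adjusted p = 0.801).

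Further down the pathway, a list of 13 identifiers fixed as later monolignol genes was read in the same fit. No annotation was used to check them, so none is given a name or role. All 13 were tested, and 0 were called changed by edgeR's quasi-likelihood test, by its likelihood ratio test, by DESeq2 or by limma-voom. Over the whole table these tests called 1, 61, 37 and 2 genes, in that order, and 1 gene is 0.004% of those tested. At an unadjusted p under 0.05, 1 of the 13 was higher in RNAi, against 3.08% of all tested genes, and 0 were lower, against 2.56%. The fit put 11 of the 13 higher in RNAi, against 49.8% of all tested genes, and 2 lower, with a median log2 fold change of 0.16 against -0.001 for all. The 13 were read in the same 6 libraries, so they are not independent observations, and this count was not tested. In 1 of the 13 each RNAi library exceeded every CTRL library, against 5.75% of all tested genes, and in 0 of the 13 the order was the reverse, against 6.08%.

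Among those fitted higher, 3 tied for the lowest adjusted p, 0.801 in edgeR. Potri.007G016400 was at 33.2 ± 3.16 CPM in RNAi and 22.5 ± 6.88 CPM in CTRL (SD, n = 3 each). Potri.005G117500 had 15.3 ± 4.48 CPM in RNAi and 10.8 ± 2.30 CPM in CTRL (SD, n = 3 each). Potri.001G042900, the gene without overlap between the groups, had 27.5 ± 0.81 CPM in RNAi and 24.0 ± 0.45 CPM in CTRL (SD, n = 3 each). Their log2 fold changes were 0.57 ± 0.21, 0.51 ± 0.26 and 0.20 ± 0.11 (SE). The 2 fitted lower were Potri.008G136600 at -0.22 ± 0.20 and Potri.009G099800 at -0.01 ± 0.18 (SE, adjusted p of 0.836 and 0.994 in edgeR).

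Markers of developing xylem, a tissue rich in lignin, had their highest summed level in RNAi 2 and RNAi 3, where several of the 9 genes were also highest. The list held 5 identifiers fixed as secondary wall cellulose synthases, again without an annotation to check them, and all 5 were detected in each library. Their summed level was 98.3, 164 and 197 CPM in RNAi 1, 2 and 3, against 104, 125 and 88.5 CPM in CTRL 1, 2 and 3. In this sum RNAi 2 and 3 were above all controls and RNAi 1 among them. The same held for PAL3, PAL4 and 4CL5. In contrast, 4CL3 had its lowest level in RNAi 3, and both C4H genes had their highest in CTRL 2. At the level of single markers, 1 of the 5, Potri.011G069600, had 8.02, 10.7 and 19.2 CPM in RNAi 1, 2 and 3, against 9.95, 12.4 and 7.69 CPM in CTRL 1, 2 and 3, so that RNAi 2 was below CTRL 2. None of the 5 passed edgeR's test (lowest adjusted p = 0.801), with fitted log2 fold changes from 0.34 to 0.65. The meristem pair, summed, was lowest in RNAi 2 and RNAi 3, at 87.3 and 87.5 CPM, against 116 CPM in RNAi 1 and 97.3 CPM or more in the controls. The less abundant of the pair had 33.32 CPM in RNAi 2, above the 32.45 CPM in CTRL 2. In RNAi 1, with a xylem sum inside the range of the controls, PAL1 and PAL2 were above all controls. Within RNAi, PAL1 and the xylem sum were both lowest in RNAi 1. PAL1 was highest in RNAi 2, though, and the xylem sum in RNAi 3. Within CTRL, CTRL 3 had the highest PAL1 level and the lowest xylem sum. The part of tissue makeup in the values of the 9 genes was not tested.

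Counts on the strand opposite to the genes were few. They made up between 0% (PAL4 and PAL5) and 0.341% (4CL3) of the stranded counts of a gene over all libraries. For PAL1 they summed to 35 over the RNAi libraries and 42 over the CTRL libraries, beside 70698 and 46385 sense counts.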

How the data were processed

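Strand-specific, polyA-selected libraries of 6 shoot apices were analysed from the raw gene counts that the authors deposited, 1 file per library with unstranded, forward and reverse columns, per the file headers. STAR is named in the submitters' processing notes. Its version is not given in the sources used here, nor are genome build, annotation and filters. The reverse column, which holds sense reads with this kit, was used. Summary lines that name no gene held 11.7% to 13.1% of the reads and were left out. No library duplicated another (chi-square over its degrees of freedom from 7.96 to 39.1 between pairs).

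RNAi was compared with CTRL over all 6 libraries with edgeR 4.0.16 in R 4.3.3 (quasi-likelihood F test, robust, TMM factors, filterByExpr), on 24991 genes, and p-values were adjusted over all of them. SEs come from dividing a log2 fold change by the root of its F. The script was tested on simulated counts. Exact two-sided permutation tests were used for family totals, ratios and shares. Alternatives were DESeq2 1.42.0, limma-voom (limma 3.58.1), the likelihood ratio test, other factors, filters and columns, a replicate block and leaving out each library. The series' design text calls the libraries biological replicates.

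The genes, the lists and the tests were chosen with earlier results of these data known, and the ratios between families after their values were seen. The rule for named genes takes the 9 genes, the listed pathway genes that pass or else the 2 with the lowest adjusted p in each direction (3 where tied), and the genes most and least alike in pattern, of which 2 on each side are named. Chromosomes are read from the identifiers. Sequences, gene lengths, chalcone synthase genes and promoter motifs were not analysed here.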

Additional observations from a re-analysis of the deposited data

How the results depend on the processing

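None of the 9 genes and none of the 13 later pathway genes was called under any of the 16 alternatives. Over the whole table these alternatives called only 0 to 61 genes, so a count of 0 says little about these lists. PAL1, PAL2, PAL3, PAL4 and 4CL5 kept a positive log2 fold change in all 16, within 0.38 to 0.54, 0.15 to 0.59, 0.23 to 0.52, 0.47 to 0.94 and 0.18 to 0.55. The lowest adjusted p of any of the 9 was 0.378, for PAL1 in DESeq2. Direction turned for C4H1 and C4H2 with upper-quartile factors (-0.0147 and -0.00896) and with library size alone (-0.0346 and -0.0137). These scalings moved the median of all genes to -0.032 and -0.0364. With 1 library left out the log2 fold change lay between -0.197 and 0.381 for C4H1, -0.0585 and 0.0896 for C4H2, -0.0233 and 0.263 for PAL5 and -0.0474 and 0.176 for 4CL3. The cause was not tested.

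The log2 difference of the PAL total lay between 0.394 and 0.516 over its 9 alternatives and that of the 4CL total between 0.025 and 0.237. The C4H total turned to -0.00394 with library size alone and lay between -0.0725 and 0.205 with 1 library left out. Leave-one-out differences in share, in percentage points, were -0.582 to 3.35 for PAL1, -1.85 to 0.936 for PAL2, -2.68 to 0.725 for PAL3, -4.26 to 4.42 for C4H1 and -4.42 to 4.26 for C4H2. The log2 PAL to C4H ratio kept its direction (0.262 to 0.491), as did PAL to 4CL (0.197 to 0.369), while C4H to 4CL lay between -0.274 and 0.0321.

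Over the whole table the count of called genes, 1 in the quasi-likelihood test, was 37 in DESeq2, 61 in the likelihood ratio test, 2 in limma-voom and 0 with library size alone, at least 1 CPM in 3 libraries or the replicate block. It was 0 to 7 with 1 library left out, the 7 without RNAi 1. Same-numbered libraries had correlations of 0.237, -0.018 and -0.025 in their deviations from the group means, against 0.416 for RNAi 3 with CTRL 2. With 3 libraries per group these values cannot show whether the numbers pair the plants. CTRL 1 and RNAi 1 were the most alike of all pairs in counts. Their chi-square over its degrees of freedom was 7.96, against 14.05 or more for any other pair. With the replicate block the log2 fold changes of PAL1 and PAL4 were 0.466 and 0.654. Shares per coding length were not run, for lack of lengths. PAL4 and PAL5, with 54 to 190 counts per library, had the fewest counts of the 9 genes.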
